A study of Mus musculus with 24 samples.

Results

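Contralateral fat was compared with tumor-free fat in mice on a high-fat diet. The comparison took 8 of the 24 libraries of the series, chosen by the diet and sample type in their labels. The 4 HFD contralateral libraries came from fat of C57BL/6 mice on the diet labelled HFD that bore a breast tumor on the opposite side, and the 4 HFD no-tumor libraries came from C57BL/6 mice on the same diet with no tumor. The tissue was subcutaneous adipose of the 4th mammary gland, flash frozen, and total RNA was sequenced after removal of ribosomal RNA. The same contrast in Chow-fed C57BL/6 mice, with 4 Chow contralateral and 4 Chow no-tumor libraries, was used to test whether a difference depended on diet. The comparison addresses what tumor bearing is accompanied by in fat away from the tumor. The labels name no tumor line, age, sex or time on diet. Nothing in the labels ties each library to its own mouse, and a p-value here therefore reflects only how far these libraries scatter, which may be technical.

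The mammary fat pad holds lipid-storing adipocytes, blood vessels wrapped in smooth muscle and pericytes, nerves with myelinating Schwann cells, resident immune cells, and the epithelial ducts of the gland, with an inner luminal and an outer basal layer. Adipocytes store triglyceride, release it by lipolysis and secrete hormones such as adiponectin. Tumors can change the numbers of circulating myeloid cells, and obesity brings macrophages and other leukocytes into fat.

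Sequencing depth was 16668320 to 17287693 counts in the HFD contralateral libraries, against 14979723 to 16533437 counts in the HFD no-tumor libraries. These ranges did not overlap, and with all libraries thinned to equal depth 934 genes were called, against 956 at full depth, with 881 shared. As a check of the tissue, adiponectin (Adipoq) was at 1743 CPM (counts scaled to library size) or more in each of the 8 libraries, and the brown fat marker Ucp1 reached 0.922 CPM at most. On the first principal component of the 8 libraries, which held 30.1% of the variance, the contralateral libraries lay between -25.33 and -11.77 and the no-tumor libraries between 12.73 and 20.57. HFD contralateral replicate 4 stood apart from its group on the second component, which held 19% of the variance, at -27.96 against 3.167 to 19.34 in the other contralateral libraries.

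Of 15718 genes tested, 956 were called (6.08%), at an adjusted p under 0.05 in edgeR's quasi-likelihood test with Benjamini-Hochberg adjustment. Of these, 427 were higher in HFD contralateral fat (2.72% of genes tested) and 529 were lower (3.37%). Most differences were small, with a median size of 0.42 on the log2 scale among the called genes. Differences of more than 2-fold were seen in 16 higher genes (0.102%) and 87 lower ones (0.554%). All 4 HFD contralateral libraries lay above all 4 HFD no-tumor libraries for 9.37% of genes and under them for 6.42%. The median log2 fold change of all genes was 0.01. When the spread was estimated from all 24 libraries together, 238 genes were called, 58 higher and 180 lower. Throughout, fold changes are log2 of HFD contralateral over HFD no-tumor fat, ± SE, and group levels are mean CPM ± SD with n = 4 libraries.

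**Figure D1:**
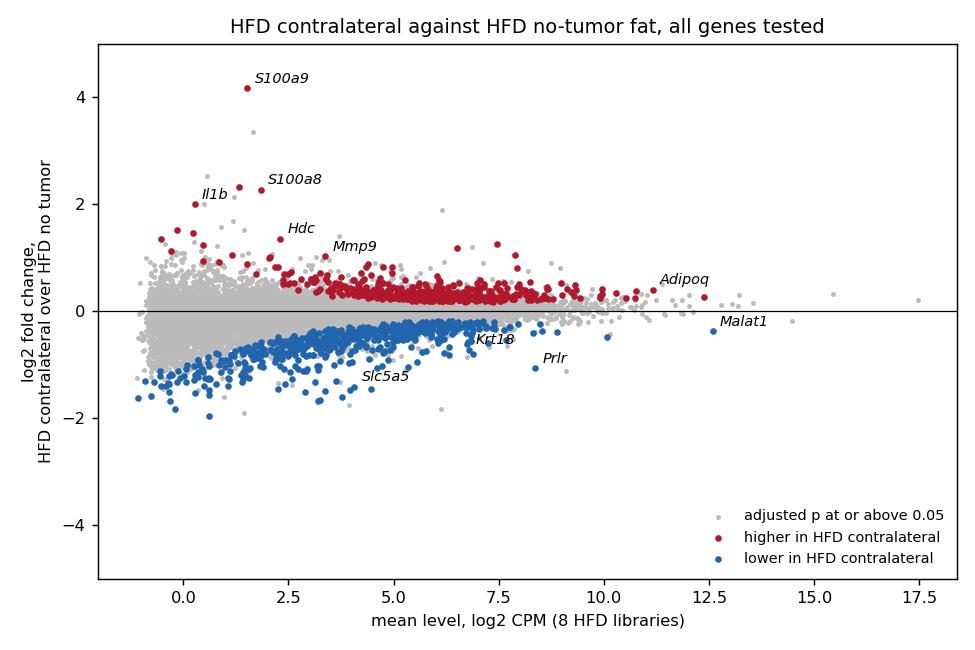
Log2 fold change of HFD contralateral over HFD no-tumor fat (vertical axis) against the mean level in log2 CPM (horizontal axis) for all 15718 genes tested; red points were called higher, blue points lower, grey points were not called. The largest positive called change was that of S100a9 at 4.17, and most called genes lay within 1 of 0.

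Of 7 neutrophil markers tested, 4 were higher in HFD contralateral fat and 0 lower, with a list median of 1.02, while DESeq2 called 1 lower. S100a9 and S100a8, which encode the subunits of the calcium-binding protein calprotectin stored in neutrophils, led the list. S100a9 passed the low-count filter only through the HFD contralateral libraries. The count and median cover only the 7 of 14 listed markers that passed this filter, and are no separate evidence of a rise. S100a9 (ENSMUSG00000056071; mm10 chromosome 3, 90692632 to 90695721, minus strand) had 2.84, 3.87, 6.34 and 8.71 CPM in the HFD contralateral libraries, against 0.119, 0.382, 0.551 and 0.118 CPM in the HFD no-tumor libraries. The groups did not overlap, and the lowest contralateral library was above every no-tumor library. The fold change was 4.17 ± 0.52 (adjusted p = 0.00388), on 2 to 139 counts per library. S100a8 (ENSMUSG00000056054; chromosome 3, 90669071 to 90670034, plus strand) had 3.33, 3.75, 5.79 and 10.96 CPM in the HFD contralateral libraries, against 0.652, 1.72, 1.04 and 1.41 CPM in the HFD no-tumor libraries. Its groups did not overlap either, and it rose by 2.27 ± 0.46 (adjusted p = 0.0257). The S100a8 call was lost without any 1 of the no-tumor libraries, without contralateral replicate 3, with no low-count filter, and with all 24 libraries in 1 fit (largest adjusted p = 0.0836), with fold changes from 1.80 to 2.49.

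These 2 genes lie close together on chromosome 3, on opposite strands, and their promoters are shown because both rose. Each sequence runs from 250 bases before to 50 bases after the RefSeq start (GRCm38.p6), at chr3:90668821-90669120 on the plus strand for S100a8 and chr3:90695672-90695971 on the minus strand for S100a9. Capitals mark matches on either strand to 4 motifs. The C/EBP-type motif was spelled TTGCNNAA. The core promoter box known as the TATA box was searched by its usual letters, TATAAA. For the factors of the GATA family the letters AGATAA were used. For PU.1, an ETS factor of myeloid cells, the search was for GAGGAA.
S100a8: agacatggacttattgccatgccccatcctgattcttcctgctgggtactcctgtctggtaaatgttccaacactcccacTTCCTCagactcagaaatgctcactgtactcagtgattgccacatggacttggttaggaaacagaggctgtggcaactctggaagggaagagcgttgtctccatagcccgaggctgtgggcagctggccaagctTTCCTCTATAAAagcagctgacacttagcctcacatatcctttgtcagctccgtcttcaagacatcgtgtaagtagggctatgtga
S100a9: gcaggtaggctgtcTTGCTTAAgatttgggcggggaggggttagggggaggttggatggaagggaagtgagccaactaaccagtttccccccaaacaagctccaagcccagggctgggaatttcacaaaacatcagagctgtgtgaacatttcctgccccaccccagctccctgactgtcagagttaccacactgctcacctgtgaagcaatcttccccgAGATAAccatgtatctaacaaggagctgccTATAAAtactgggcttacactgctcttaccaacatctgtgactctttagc
TATAAA occurred 1 time in each promoter, and 13.6% of the 32851 RefSeq promoters of this length hold it. Its first base was at -30 from the RefSeq start in S100a8, but at 1, the RefSeq start itself, in S100a9, so the matches do not share a position. GAGGAA occurred 2 times in the S100a8 promoter (28.3% of promoters), and TTGCNNAA and AGATAA occurred 1 time each in that of S100a9 (10.8% and 11.2%). A match is a description of the letters and not a site of binding.

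Mmp9, a gelatinase stored in neutrophil granules, had 16.2, 14.5, 13.9 and 11.3 CPM in the HFD contralateral libraries, against 7.06, 6.75, 7.09 and 5.95 CPM in the HFD no-tumor libraries (1.03 ± 0.12, adjusted p = 0.00163). Hdc, which makes histamine, had 6.84, 7.32, 7.63 and 6.83 CPM in HFD contralateral libraries, against 2.49, 2.68, 3.30 and 2.47 CPM in HFD no-tumor libraries (1.36 ± 0.13, adjusted p = 0.00112). Neither gene overlapped between the groups, and both were called in all 17 alternatives. Across the series Mmp9 did not follow S100a8. Chow no-tumor libraries had 23.67 to 32.01 CPM of Mmp9 and 0.2809 to 0.8276 CPM of S100a8. HFD peritumoral libraries had 12.29 to 13.46 CPM of Mmp9 and 10.68 to 28.42 CPM of S100a8. Which cells made Mmp9 was not tested. Csf3r, the receptor for granulocyte colony-stimulating factor, averaged 5.63 ± 1.28 CPM in HFD contralateral and 2.72 ± 0.525 CPM in HFD no-tumor fat (1.02 ± 0.19, adjusted p = 0.011). Slfn4, named after its values were seen, averaged 4.17 CPM in HFD contralateral and 0.814 CPM in HFD no-tumor fat (adjusted p = 0.00341).

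The remaining neutrophil markers were at low levels or did not pass. Ly6g, which marks the lineage, and Mpo were at most 0.125 CPM in any of the 8 libraries. Cxcr2, Retnlg, Mmp8, Ngp and Camp, also under the low-count filter, were at most 1.88 CPM. All 7 of these had a higher mean in HFD contralateral than in HFD no-tumor fat, such as Cxcr2 with 0.883 against 0.167 CPM and Mmp8 with 0.727 against 0.106 CPM, and were not tested. Lcn2 (-0.52 ± 0.19, adjusted p = 0.153) and Ltf (-0.39 ± 0.22, adjusted p = 0.355), which mammary epithelium also makes, did not pass. The summed level of the list overlapped between the groups, at 105.6 to 145.7 CPM in HFD contralateral and 93.97 to 155.2 CPM in HFD no-tumor fat, with Ltf and Lcn2 as its most abundant members. In a bulk sample more cells of a type and more RNA per cell cannot be told apart. Mast cell proteases did not pass beside Hdc: Mcpt4 was at 0.38 ± 0.15 (adjusted p = 0.157) and Cpa3 at 0.21 ± 0.12 (adjusted p = 0.312). The stem cell factor receptor Kit fell by 0.52 on the log2 scale, to 54.0 ± 1.35 CPM in HFD contralateral fat against 76.2 ± 16 CPM in HFD no-tumor fat (adjusted p = 0.0478), a call lost in 10 of 17 alternatives.

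Cytokine and chemokine genes gave 4 higher and 1 lower of 15 tested, with a median of 0.41. Il1b, the inflammatory cytokine interleukin-1 beta, had 3.63, 1.84, 1.11 and 1.19 CPM in the HFD contralateral libraries, against 0.296, 0.765, 0.428 and 0.412 CPM in the HFD no-tumor libraries (2.01 ± 0.45, adjusted p = 0.0265). The groups did not overlap, but the gene was covered by 5 to 60 counts per library, and its call was lost in 5 of 17 alternatives. Il1b also passed the low-count filter only through the HFD contralateral libraries. The eosinophil attractant Ccl11 averaged 145.5 ± 13.9 CPM in HFD contralateral and 106.9 ± 5.59 CPM in HFD no-tumor fat (0.42 ± 0.07, adjusted p = 0.00664). The monocyte attractants Ccl2 (0.83 ± 0.21, adjusted p = 0.0387) and Ccl7 (0.83 ± 0.22, adjusted p = 0.0455) rose to a like degree at levels under 9 CPM. The Ccl2 libraries overlapped, and its call was lost in 10 of 17 alternatives. Cxcl14, a chemokine of stroma and epithelium, fell by 0.39 (adjusted p = 0.0124). With all 24 libraries in 1 fit, 0 members of this list were called.

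Some macrophage and complement genes were higher. Of 16 macrophage markers, 6 were higher and 0 lower, with 15 of 16 above 0 and a median of 0.34. C1qb, a subunit of the complement starter C1q, had 139.9, 152.7, 176.2 and 174.5 CPM in the HFD contralateral libraries, against 116.8, 90.4, 98.2 and 114 CPM in the HFD no-tumor libraries (0.59 ± 0.09, adjusted p = 0.00697). Its groups did not overlap. C1qc (0.53 ± 0.09) and C1qa (0.52 ± 0.10), the other C1q subunits, the Fc receptor gene Fcgr3 (0.51 ± 0.10), the pan-macrophage marker Adgre1 (0.34 ± 0.06) and the growth factor receptor gene Csf1r (0.33 ± 0.07) also rose, with adjusted p from 0.00901 to 0.0168. C1qa and Csf1r were named after their values were seen. The list sum was 1880 to 2301 CPM in HFD contralateral and 1468 to 1764 CPM in HFD no-tumor fat, with no overlap. The call count was 0 of 16 with all 24 libraries in 1 fit, and 4 to 8 when single libraries were left out.

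On the complement list, and not on the macrophage list, the receptor gene C5ar1 had 23.2, 25.7, 28.5 and 31.5 CPM in the HFD contralateral libraries, against 15.47, 12.04, 14.31 and 16.25 CPM in the HFD no-tumor libraries (0.88 ± 0.11, adjusted p = 0.00206). Which cells made C5ar1 was not tested. C5ar1 did not overlap between the groups. C4b, of the classical complement pathway, averaged 745.1 ± 98.4 CPM in HFD contralateral and 551.8 ± 48.2 CPM in HFD no-tumor fat (0.41 ± 0.09, adjusted p = 0.0231), making 2 higher of 17 complement genes. Of 16 markers of the lipid-associated macrophages of obese fat, only Apoe, a lipid carrier also made by other cells, was called (0.37 ± 0.09, adjusted p = 0.0349). Spp1 was at 3.45 ± 3.36 CPM in HFD contralateral and 1.06 ± 0.496 CPM in HFD no-tumor fat (adjusted p = 0.215), and Trem2 at 6.7 ± 4.88 CPM in HFD contralateral and 4.24 ± 1.18 CPM in HFD no-tumor fat (adjusted p = 0.505). Clec10a, a lectin of resident macrophages, was the called member of 13 scavenger receptor genes (0.47 ± 0.12, adjusted p = 0.0429). The Apoe call held in 8 of 17 alternatives and in 1 of 8 with single libraries left out, and that of Clec10a in 9 and 3.

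Interferon-response genes gave 4 higher and 0 lower of 24, with a median of 0.18. Ifi27l2a, an interferon-induced membrane protein gene, averaged 603 ± 71.2 CPM in HFD contralateral and 410.7 ± 18.9 CPM in HFD no-tumor fat (0.53 ± 0.08, adjusted p = 0.00437), with no overlap. The antiviral RNA sensors Oas3 (1.0 ± 0.20) and Oas2 (0.50 ± 0.11) and the transcription factor Irf7 (0.35 ± 0.08) rose with adjusted p from 0.0158 to 0.0234. MHC class I genes gave 2 higher of 15, H2-D1 (0.32 ± 0.07, adjusted p = 0.0268) and H2-T22 (0.30 ± 0.06, adjusted p = 0.0131), whose near-identical relatives make separate counts uncertain. All 6 of these calls were lost with all 24 libraries in 1 fit. The GTPases induced by interferon gamma had 0 of 15 called (median -0.18), MHC class II genes 0 of 8 and T and NK cell markers 0 of 16. Of 13 B cell markers, only Ebf1 was called (0.33 ± 0.06, adjusted p = 0.00719). Ebf1 is also a transcription factor of adipocytes.

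Most adipocyte genes did not pass. Of 19 mature adipocyte markers, 4 were higher and 0 lower, with a median of 0.15. Adipoq (chromosome 16, 23146536 to 23158028, plus strand), which encodes the insulin-sensitizing hormone adiponectin, had 2566, 2564, 2585 and 2787 CPM in the HFD contralateral libraries, against 1743, 2022, 2083 and 1945 CPM in the HFD no-tumor libraries (0.41 ± 0.07, adjusted p = 0.00933). Pnpla2, the lipase of the first step of triglyceride breakdown, had 1160, 1107, 1175 and 1159 CPM in HFD contralateral libraries, against 884, 767.4, 883.2 and 845.9 CPM in HFD no-tumor libraries (0.42 ± 0.06, adjusted p = 0.00437). The groups overlapped for neither gene. The next lipase, Lipe (0.25 ± 0.06, adjusted p = 0.0378), and the fatty acid carrier Fabp4 (0.27 ± 0.07, adjusted p = 0.0494) also passed, in 9 and 4 of 17 alternatives. The summed level of the 19 markers was 27540 to 30920 CPM in HFD contralateral and 24200 to 25720 CPM in HFD no-tumor fat, and 0 of 19 were called with all 24 libraries in 1 fit, against 2 to 7 with single libraries left out, 7 of them without contralateral replicate 4.

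Members of several other lists, and Chrdl1, were called higher. Chrdl1, a secreted BMP antagonist, had 266.9, 288.3, 425 and 314.2 CPM in HFD contralateral libraries, against 177.4, 154.6, 151.3 and 128.1 CPM in HFD no-tumor libraries (1.06 ± 0.15, adjusted p = 0.00887). Its groups did not overlap, and it was called in all 17 alternatives. Bmp3, a TGF-beta family member that rises as fat expands, averaged 213.5 ± 22.5 CPM in HFD contralateral and 146 ± 8.72 CPM in HFD no-tumor fat (0.52 ± 0.07, adjusted p = 0.00371). Hilpda, an inhibitor of lipolysis induced by hypoxia (0.74 ± 0.16, adjusted p = 0.0211), the vasodilator peptide gene Adm (0.83 ± 0.15, adjusted p = 0.0155) and the insulin receptor substrate Irs3 (0.44 ± 0.08, adjusted p = 0.0086) rose too.

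Pathways of lipid making did not show calls. Fatty acid synthesis had 0 of 21 genes called (median -0.06), cholesterol synthesis 0 of 21 (-0.03) and triglyceride synthesis 0 of 14 (-0.08). Fasn, the fatty acid synthase, varied widely within the groups, at 1076, 1536, 594.2 and 673.7 CPM in HFD contralateral libraries and 798.5, 1409, 1485 and 1445 CPM in HFD no-tumor libraries (-0.43 ± 0.36, adjusted p = 0.536). Fatty acid oxidation gave 2 higher of 19, the electron carrier Etfa (0.33 ± 0.07) and the isomerase Eci1 (0.30 ± 0.06), and nuclear oxidative phosphorylation 1 of 29, Cox4i1 (0.18 ± 0.05, adjusted p = 0.0363). Thermogenic genes had 0 of 11 called. Leptin (Lep) was at 2317 ± 635 CPM in HFD contralateral and 1841 ± 293 CPM in HFD no-tumor fat (0.31 ± 0.19, adjusted p = 0.387).

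Creatine genes did not pass. Of the 5 tested, 0 were called (median -0.13), and the muscle forms Ckm and Ckmt2 were at or under 0.188 CPM. Gatm, the first enzyme of creatine synthesis, had 8.53, 8.79, 7.14 and 7.58 CPM in the HFD contralateral libraries, against 9.78, 5.93, 8.81 and 8.12 CPM in the HFD no-tumor libraries (-0.05 ± 0.14, adjusted p = 0.869). Gamt, which completes it, was at -0.27 ± 0.11 (adjusted p = 0.157), the creatine transporter gene Slc6a8 at -0.13 ± 0.09 (adjusted p = 0.434) and the kinase gene Ckb at 0.10 ± 0.08 (adjusted p = 0.495). The mitochondrial kinase gene Ckmt1 had 1.15, 1.72, 1.23 and 0.439 CPM in HFD contralateral libraries, against 3.08, 2.93, 2.75 and 1.24 CPM in HFD no-tumor libraries, with overlapping groups (-1.15 ± 0.37, adjusted p = 0.0912).

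**Figure D2:**
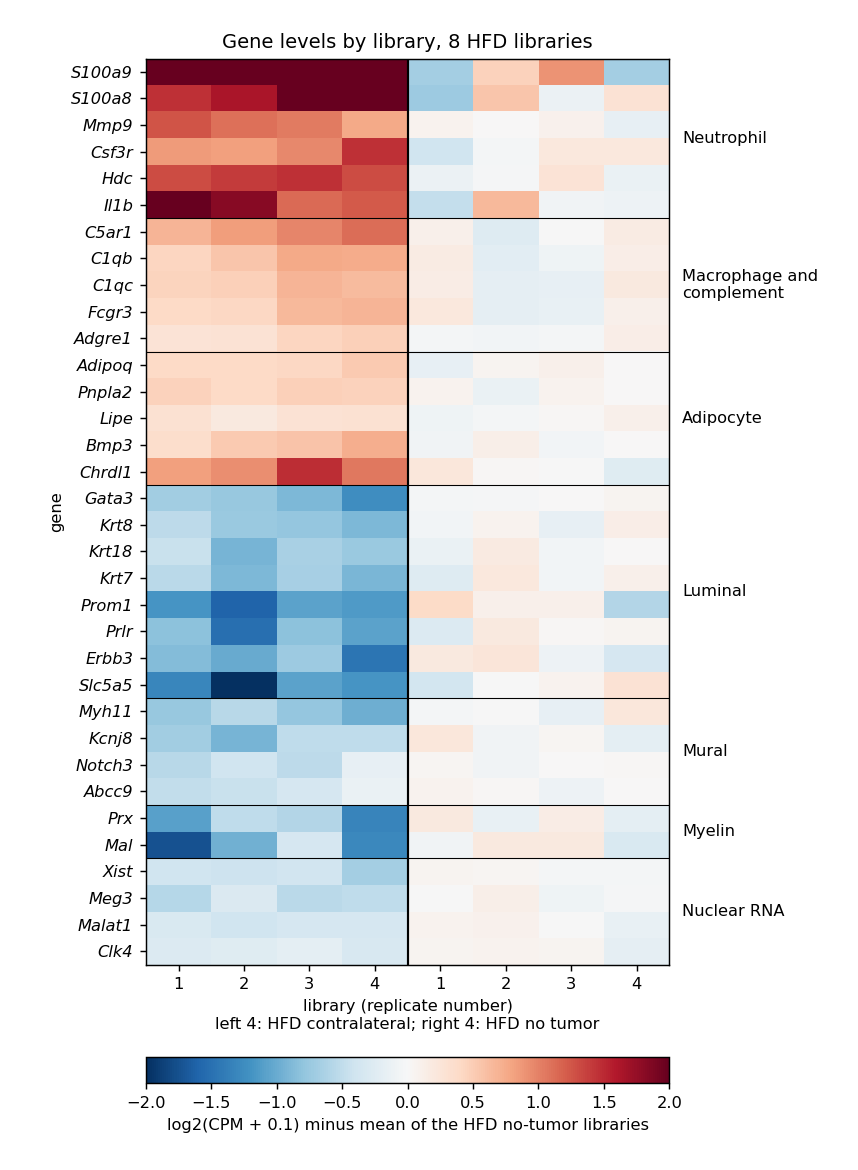
Level of genes named in the text (rows) in each of the 8 libraries (columns; 4 HFD contralateral libraries left of the line, 4 HFD no-tumor libraries right of it), as log2(CPM + 0.1) minus the mean of the 4 HFD no-tumor libraries, with the color scale ending at -2 and 2. Only called genes were drawn, so the colors follow from that choice, and list members that were not called are left out. The genes drawn as neutrophil, as macrophage and complement, and as adipocyte were called higher, and those drawn as luminal, mural, myelin and nuclear RNA lower. C5ar1 is drawn from the complement list. Outside those marker lists are Hdc and Il1b in the neutrophil block, Bmp3 and Chrdl1 in the adipocyte block, and Erbb3 and Slc5a5 in the luminal block.

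Of 19 mammary luminal epithelial genes tested, 10 were lower and 1 higher, with a median of -0.66. Gata3, the transcription factor of luminal identity, had 23.2, 22.2, 20.25 and 15.98 CPM in the HFD contralateral libraries, against 36.6, 37.2, 38.1 and 39.1 CPM in the HFD no-tumor libraries (-0.91 ± 0.10, adjusted p = 0.00139). The paired keratins of simple epithelia fell together. Krt8 (ENSMUSG00000049382; chromosome 15, 101996711 to 102004342, minus strand) had 43.9, 37.8, 36.9 and 33.8 CPM in HFD contralateral libraries, against 61.2, 66.6, 56.7 and 69.8 CPM in HFD no-tumor libraries (-0.76 ± 0.09, adjusted p = 0.00163). Krt18 (ENSMUSG00000023043; chromosome 15, 102028216 to 102032026, plus strand) had 99.4, 71.0, 86.1 and 80.6 CPM in HFD contralateral libraries, against 123.7, 153.1, 130.7 and 136.2 CPM in HFD no-tumor libraries (-0.71 ± 0.10, adjusted p = 0.00469). The groups did not overlap for these 3 genes.

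Krt8 and Krt18 lie close together on chromosome 15, and their promoters are shown because both fell. They lie at chr15:102004293-102004592 on the minus strand and chr15:102027966-102028265 on the plus strand (GRCm38.p6, RefSeq), with capitals as above.
Krt8: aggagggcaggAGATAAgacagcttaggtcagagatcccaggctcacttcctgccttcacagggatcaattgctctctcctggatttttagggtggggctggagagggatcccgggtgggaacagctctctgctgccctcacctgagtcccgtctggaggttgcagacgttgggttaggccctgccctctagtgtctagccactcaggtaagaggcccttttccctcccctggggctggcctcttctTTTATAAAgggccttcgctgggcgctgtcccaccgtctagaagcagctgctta
Krt18: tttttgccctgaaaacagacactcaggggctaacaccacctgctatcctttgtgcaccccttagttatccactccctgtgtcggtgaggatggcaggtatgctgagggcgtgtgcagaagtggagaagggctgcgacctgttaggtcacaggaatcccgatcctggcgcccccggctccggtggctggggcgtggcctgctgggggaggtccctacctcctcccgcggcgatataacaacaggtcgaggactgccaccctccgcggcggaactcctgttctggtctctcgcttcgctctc
The Krt8 promoter held 2 overlapping matches to TATAAA, 1 on each strand, and 1 to AGATAA. The TATAAA matches had their first bases at -3 and -1, next to the RefSeq start. The Krt18 window held 0 matches to the 4 motifs, which says only that these letters are not in it.

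The other luminal genes that fell were Krt7 (-0.79 ± 0.12), Prom1, a luminal progenitor surface protein (-1.31 ± 0.20), the prolactin receptor gene Prlr (-1.06 ± 0.16), the milk casein Csn3 (-1.06 ± 0.20), Krt19 (-0.45 ± 0.10), the epithelial cadherin Cdh1 (-0.66 ± 0.14) and the progesterone receptor gene Pgr (-1.44 ± 0.33), with adjusted p from 0.00482 to 0.0492. Csn3, Krt19, Cdh1 and Pgr were named after their values were seen. Prlr, which receives the lactation hormone prolactin, had 251.5, 154.9, 249.2 and 211 CPM in the HFD contralateral libraries, against 364.6, 506.7, 447.4 and 461.4 CPM in the HFD no-tumor libraries, with no overlap. The estrogen receptor gene Esr1, which adipose stroma also expresses, was at 0.22 ± 0.24 (adjusted p = 0.637). Trf, the iron carrier transferrin made by luminal cells and by other cells, was the member that rose (0.36 ± 0.07, adjusted p = 0.0131). Milk genes such as Csn2 and Wap were at most 0.0637 CPM in the 8 libraries. With all 24 libraries in 1 fit 4 luminal genes were called lower, and 7 to 10 with single libraries left out.

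Several epithelial genes were among the named genes with a decrease of more than 2-fold. Slc5a5, the iodide transporter, had 9.62, 5.66, 11.26 and 10.46 CPM in the HFD contralateral libraries, against 18.5, 23.8, 25.1 and 29.3 CPM in the HFD no-tumor libraries (-1.41 ± 0.21, adjusted p = 0.00846). Erbb3, a receptor of the epidermal growth factor family, had 29.5, 26.7, 32.3 and 19.5 CPM in HFD contralateral libraries, against 61.2, 63.53, 50.03 and 42.74 CPM in HFD no-tumor libraries (-1.03 ± 0.18, adjusted p = 0.0166). Neither overlapped. The tight junction gene Cgn (-1.09 ± 0.15), the immune checkpoint ligand gene Vtcn1 (-1.36 ± 0.21), the forkhead transcription factor gene Foxi1 (-1.09 ± 0.16) and Cxcl15, a chemokine of mouse epithelia (-1.02 ± 0.19), fell too. Ttc6 (-1.61 ± 0.22), Rassf6 (-1.26 ± 0.20), Gipc2 (-1.07 ± 0.19), Glt28d2 (-1.08 ± 0.18), Ccdc162 (-1.04 ± 0.18) and Rasgrf1, a Ras exchange factor (-1.31 ± 0.17), fell by a like amount. The adjusted p of these 12 genes ran from 0.00341 to 0.0166.

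The outer, basal layer of the ducts gave weaker evidence. Of 12 basal and myoepithelial genes 2 were lower, Myh11 and Mylk, both of which are also genes of vascular smooth muscle, with a list median of -0.48. Only 2 of the 12 had a fold change above 0, and DESeq2 called 6 basal genes lower, against 13 luminal genes. The basal keratins Krt14 (-0.50 ± 0.21, adjusted p = 0.203) and Krt5 (-0.47 ± 0.30, adjusted p = 0.414) and the basal transcription factor gene Trp63 (-0.71 ± 0.26, adjusted p = 0.154) did not pass. The summed basal list overlapped, at 814.6 to 1165 CPM in HFD contralateral and 963.2 to 1120 CPM in HFD no-tumor fat. The summed luminal list did not, at 835.3 to 1045 CPM in HFD contralateral and 1264 to 1488 CPM in HFD no-tumor fat. Both sums lean on abundant members. Prlr alone averaged 216.7 CPM in HFD contralateral and 445.1 CPM in HFD no-tumor fat. The basal list shares Acta2, Myh11, Cnn1 and Mylk with the smooth muscle list, so its sum is not one of epithelium alone.

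**Figure D3:**
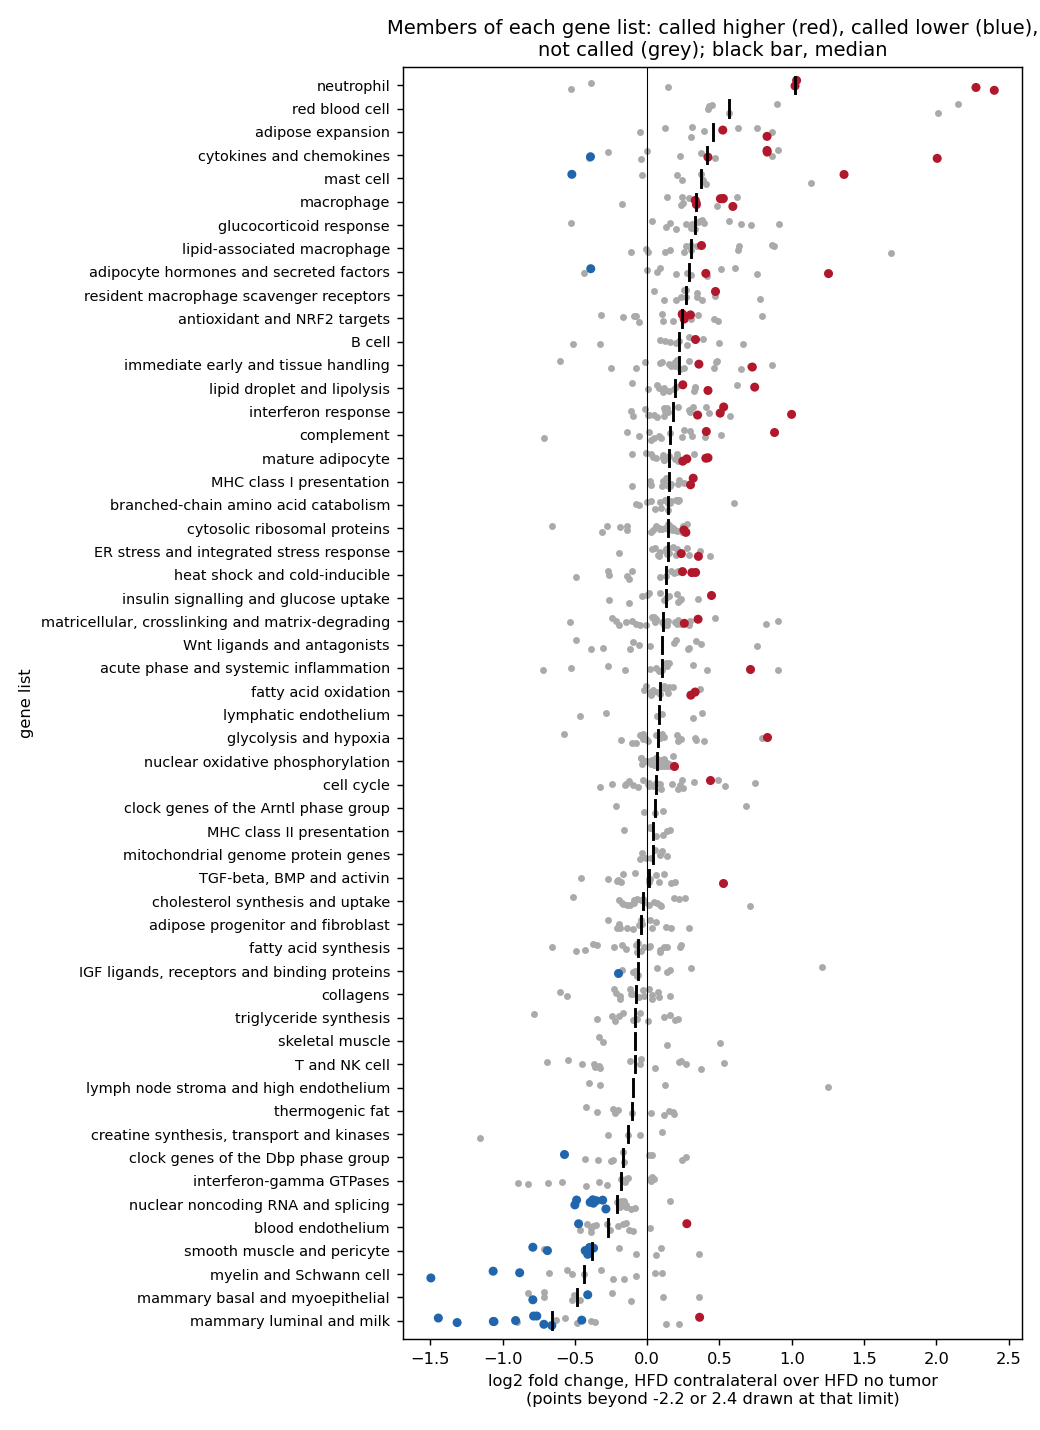
Log2 fold change of HFD contralateral over HFD no-tumor fat (horizontal axis) for the tested members of each gene list with at least 3 of them (vertical axis, ordered by median); red members were called higher, blue lower, grey were not called, and black bars are medians. The neutrophil list had the highest median (1.02, over the 7 of its 14 members that passed the low-count filter) and the luminal list the lowest (-0.66).

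Smooth muscle and pericyte genes fell in 6 of 12 cases and rose in 0, with a median of -0.38. Myh11, the myosin of contractile smooth muscle, had 88.0, 100.7, 86.4 and 75.4 CPM in the HFD contralateral libraries, against 143.8, 147.4, 132 and 173.3 CPM in the HFD no-tumor libraries (-0.79 ± 0.10, adjusted p = 0.00341). The groups did not overlap. The potassium channel genes of pericytes, Kcnj8 (-0.69 ± 0.12) and its partner Abcc9 (-0.37 ± 0.07), the mural receptor gene Notch3 (-0.43 ± 0.08), the myosin kinase gene Mylk (-0.41 ± 0.09) and the pericyte marker Rgs5 (-0.40 ± 0.10), which was named after its values were seen, fell with adjusted p from 0.00697 to 0.0324. Acta2, a defining smooth muscle actin, was at 0.36 ± 0.19 (adjusted p = 0.304). The summed list overlapped, at 1295 to 1767 CPM in HFD contralateral and 1485 to 1681 CPM in HFD no-tumor fat. With all 24 libraries in 1 fit 1 of the 12 was called, and the Myh11 call was lost (adjusted p = 0.0583). Of 16 blood endothelial genes, Emcn, a sialoprotein of venous and capillary endothelium, fell (-0.47 ± 0.10, adjusted p = 0.0209), and Fabp4, shared with adipocytes, rose. Without HFD contralateral replicate 4, which stood apart above, 10 endothelial genes were called lower, and DESeq2 and limma voom called 5 and 7 lower.

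Myelin and Schwann cell genes gave 3 lower and 0 higher of 13, with a median of -0.43. Prx, a scaffold of the myelin sheath, had 2.96, 4.49, 4.25 and 2.51 CPM in the HFD contralateral libraries, against 7.35, 5.74, 7.09 and 5.59 CPM in the HFD no-tumor libraries (-0.88 ± 0.19, adjusted p = 0.0184). Its groups did not overlap, and its call was lost in 2 of 17 alternatives, without no-tumor replicate 1 or 3. Mal, a myelin lipid-raft protein that epithelia also make, had 1.03, 1.84, 2.89 and 1.44 CPM in HFD contralateral libraries, against 3.498, 4.205, 4.22 and 2.94 CPM in HFD no-tumor libraries (-1.06 ± 0.27, adjusted p = 0.0363). These groups did not overlap either, and the call held in 10 of 17 alternatives. Mbp, a myelin basic protein also found outside nerve, was at -0.16 ± 0.07 (adjusted p = 0.192), and the Schwann cell factor Sox10 at -0.68 ± 0.24 (adjusted p = 0.14). The summed list overlapped, at 213.3 to 238.1 CPM in HFD contralateral and 232.8 to 263.9 CPM in HFD no-tumor fat.

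Of 17 nuclear noncoding RNAs and splicing genes, 8 fell and 0 rose, with a median of -0.21. Xist, which coats the inactive X chromosome, had 950.5, 939.7, 963.6 and 786.8 CPM in the HFD contralateral libraries, against 1302, 1284, 1215 and 1219 CPM in the HFD no-tumor libraries (-0.49 ± 0.07, adjusted p = 0.00471). Malat1, an abundant speckle RNA, had 5586, 5241, 5444 and 5467 CPM in HFD contralateral libraries, against 7278, 7353, 6832 and 6191 CPM in HFD no-tumor libraries (-0.37 ± 0.08, adjusted p = 0.0162). Neither overlapped. The imprinted RNA Meg3 (-0.50 ± 0.09), the paraspeckle RNA Neat1 (-0.39 ± 0.09), the splicing kinase genes Clk4 (-0.29 ± 0.07) and Clk1 (-0.31 ± 0.08) and the splicing factor genes Luc7l3 (-0.38 ± 0.09) and Pnisr (-0.35 ± 0.09) fell with adjusted p from 0.00719 to 0.0354. Clk1, Luc7l3 and Pnisr were named after their values were seen, and 4 of the 17 were called with all 24 libraries in 1 fit. With single libraries left out 2 to 8 were called, with 2 without contralateral replicate 2, no-tumor replicate 2 or no-tumor replicate 3. The 529 genes called lower had a median of 5210 exon bases and 46.5% GC in their longest transcript, against 3446 and 49.5% over all genes tested, and the 427 called higher had 3293 and 50.9%. The part of gene length and base composition in these results was not tested.

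Measures per library moved with these groups. Mitochondrial ribosomal RNA took 22.8% to 24.8% of counts in HFD contralateral libraries and 20.54% to 22.01% in HFD no-tumor libraries, and Malat1 took 0.504% to 0.534% in HFD contralateral and 0.636% to 0.773% in HFD no-tumor libraries. The luminal and adipocyte sums, the Neat1 share and the mitochondrial genome share did not overlap either. Each of these 6 measures had a two-sided exact permutation p of 0.0286, the smallest that 4 against 4 libraries allow, and an adjusted p of 0.0571 over the 12 measures compared, so 0 passed. The red blood cell sum was 312 to 509 CPM in HFD contralateral and 214.3 to 400.1 CPM in HFD no-tumor libraries (exact permutation p = 0.0571), with 0 of its 7 genes called. Skeletal muscle, B cell and basal sums and the Gm42418 and top 10 gene shares overlapped. The part of these measures in the gene results was not tested.

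**Figure D4:**
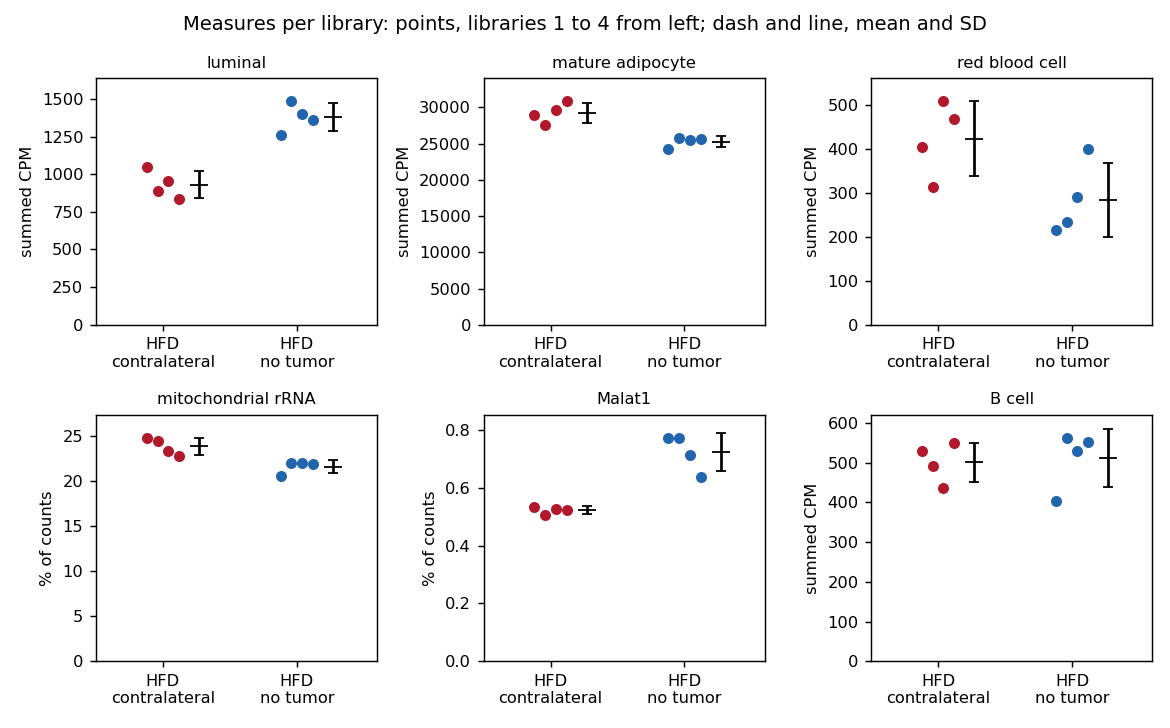
Values per library of 6 measures (vertical axes from 0; summed CPM of marker lists or percent of counts) in the 4 HFD contralateral libraries (red, left) and the 4 HFD no-tumor libraries (blue, right), with mean and SD beside them. The luminal, adipocyte, mitochondrial rRNA and Malat1 values do not overlap, and the red blood cell and B cell values do.

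Most members of the stress and housekeeping lists did not pass. Of 17 antioxidant genes 4 rose, the glutathione transferase Mgst1 (0.26 ± 0.05), the thioredoxin reductase Txnrd1 (0.24 ± 0.05), the lipid peroxidase Gpx4 (0.30 ± 0.07) and the dismutase Sod1 (0.24 ± 0.07), with adjusted p from 0.0151 to 0.0466. The heat shock genes Hspa8 (0.31 ± 0.07), Hsph1 (0.34 ± 0.08) and Dnajb1 (0.24 ± 0.07) were the 3 higher of 15. The secretory-pathway factor Xbp1 (0.35 ± 0.08) and the disulfide isomerase Pdia4 (0.24 ± 0.06) were the 2 higher of 21 ER stress genes, and ribosomal protein genes gave 2 higher of 31, among them Rps14 (0.27 ± 0.06). Of 22 immediate early genes, Myc (0.73 ± 0.15, adjusted p = 0.0243) and the mRNA decay factor Zfp36 (0.36 ± 0.10, adjusted p = 0.0494) rose, and the acute phase list had 1 higher of 15, the transcription factor Cebpd (0.71 ± 0.15, adjusted p = 0.0287). Of these calls, that of Xbp1 held with all 24 libraries in 1 fit but was lost in 5 of 17 alternatives, and the others were lost in that fit. The Dnajb1 call held in 3 of 17 alternatives and in 0 of 8 with single libraries left out.

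Matrix, clock and hormone-response genes were mostly uncalled. Collagens had 0 of 18 called (median -0.07), adipose progenitor genes 0 of 15 (-0.04) and Wnt genes 0 of 14 (0.10). Of 30 matrix-remodelling genes the membrane-bound metalloproteinase Mmp14 (0.35 ± 0.07, adjusted p = 0.0151) and the secreted adipose protein gene Ccdc80 (0.26 ± 0.07, adjusted p = 0.041) rose. The glucocorticoid list had 0 of 17 called, with 16 above 0 and a median of 0.33. The clock repressor gene Per3 fell by 0.57 (89.2 ± 12.5 CPM in HFD contralateral and 130.7 ± 5.28 CPM in HFD no-tumor fat, adjusted p = 0.00639), as 1 of 11 genes of the Dbp phase group. Nrg4, a hormone of fat (-0.39 ± 0.10, adjusted p = 0.0486), and the scavenging growth factor receptor Igf2r (-0.20 ± 0.05, adjusted p = 0.046) were called lower near the threshold, in 6 and 7 of 17 alternatives.

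The contrast of contralateral and no-tumor fat differed between the diets for many genes. The interaction, the log2 difference on HFD minus that on Chow, was called for 3314 of 16676 genes (19.9%), with 1657 in each direction (9.94% each). Of the 427 genes higher on HFD 292 were called in the interaction in the same direction, and of the 529 lower ones 400. Both tests use the same 8 HFD libraries, so part of this overlap is built in. Chow contralateral against Chow no-tumor fat gave 1268 calls of 15946 (7.95%), with 786 higher (4.93%) and 482 lower (3.02%). The genes called higher on HFD included 5 called higher and 31 called lower on Chow, and those called lower on HFD included 4 called lower and 86 called higher on Chow. The Chow contralateral libraries held 114.1 to 5732 CPM of skeletal muscle genes, against 43.61 to 1315 CPM in Chow no-tumor libraries. The HFD contralateral libraries held 73.84 to 109.6 CPM and the HFD no-tumor libraries 67.48 to 84.67 CPM. Depth was 11686381 to 13849031 counts in Chow contralateral and 16123753 to 16641785 counts in Chow no-tumor libraries, with no overlap. Mitochondrial ribosomal RNA averaged 24.87% of counts (SD 1.4) in Chow contralateral and 32.42% (SD 2.38) in Chow no-tumor libraries. On HFD its mean was higher in contralateral libraries, at 23.85% against 21.61% in no-tumor libraries. The part of these differences in the interaction was not tested.

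Of 13 myelin genes 3 were lower on HFD and 5 higher on Chow, and of 17 nuclear RNA genes 8 were lower on HFD and 8 higher on Chow. Prx had a difference of -0.88 ± 0.19 on HFD and 1.21 ± 0.17 on Chow (11.4 ± 1.34 CPM in Chow contralateral and 5.04 ± 1.33 CPM in Chow no-tumor fat), for an interaction of -2.08 ± 0.27 (adjusted p = 0.000287). Of the 13 myelin genes 7 were called lower in the interaction and 0 higher. Malat1 was at -0.37 ± 0.08 on HFD and 0.38 ± 0.09 on Chow (interaction adjusted p = 0.000404), Neat1 at -0.39 ± 0.09 on HFD and 1.15 ± 0.12 on Chow (adjusted p = 4.95e-05), and 14 of 17 nuclear RNA genes were called lower in the interaction. The near-identical splicing regulators Rbm4 and Rbm4b, whose separate counts are uncertain, were at -0.69 ± 0.10 and -0.49 ± 0.07 on HFD and at 0.66 ± 0.08 and 0.60 ± 0.07 on Chow (interaction adjusted p = 1.41e-05 and 9.96e-06). The potassium channel gene Kcna1 was at -0.71 ± 0.14 on HFD and 1.37 ± 0.12 on Chow (adjusted p = 9.96e-06). Mural genes had 7 of 12 called lower in the interaction and endothelial genes 11 of 16. Myh11 was at -0.79 ± 0.10 on HFD and 0.66 ± 0.13 on Chow (interaction adjusted p = 0.000312).

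Several immune and adipocyte increases on HFD also differed from Chow. Mmp9 was at 1.03 ± 0.12 on HFD and -0.35 ± 0.12 on Chow, for an interaction of 1.40 ± 0.18 (adjusted p = 0.000262), and Hdc had an interaction of 1.5 ± 0.31 (adjusted p = 0.00494). S100a8 (2.67 ± 0.74, adjusted p = 0.0201) and Il1b (2.44 ± 0.63, adjusted p = 0.0132) passed, while S100a9 (3.25 ± 1.12, adjusted p = 0.0521) did not. All 3 were under the low-count filter on Chow alone. Of 16 macrophage genes 8 were called higher in the interaction, and of 19 adipocyte genes 7. Adipoq was at 0.41 ± 0.07 on HFD and -0.21 ± 0.09 on Chow (interaction 0.63 ± 0.12, adjusted p = 0.00248). Ribosomal protein genes had 18 of 31 called higher and 2 lower in the interaction, and nuclear oxidative phosphorylation genes 16 of 29 higher. On HFD these lists had only 2 and 1 genes called higher, with medians of 0.14 and 0.07. On Chow they had 6 and 7 genes called lower, with medians of -0.21 and -0.33. The outer mitochondrial membrane protein gene Tspo was at 0.47 ± 0.06 on HFD and -0.32 ± 0.07 on Chow (adjusted p = 0.000138).

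Luminal genes had a median of -0.66 on HFD and -0.19 on Chow. Of 19 luminal genes 6 were called lower and 1 higher in the interaction. Gata3 was at -0.91 ± 0.10 on HFD and -0.02 ± 0.15 on Chow (interaction -0.87 ± 0.19, adjusted p = 0.00673), and Prlr at -1.06 ± 0.16 on HFD and -0.21 ± 0.10 on Chow (interaction -0.84 ± 0.20, adjusted p = 0.00937). Krt8 (-0.35 ± 0.27, adjusted p = 0.379) and Krt18 (-0.41 ± 0.19, adjusted p = 0.137) did not differ between the diets past the threshold. Ckmt1, which did not pass on either diet, had an interaction of -1.87 ± 0.45 (adjusted p = 0.00898).

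**Figure D5:**
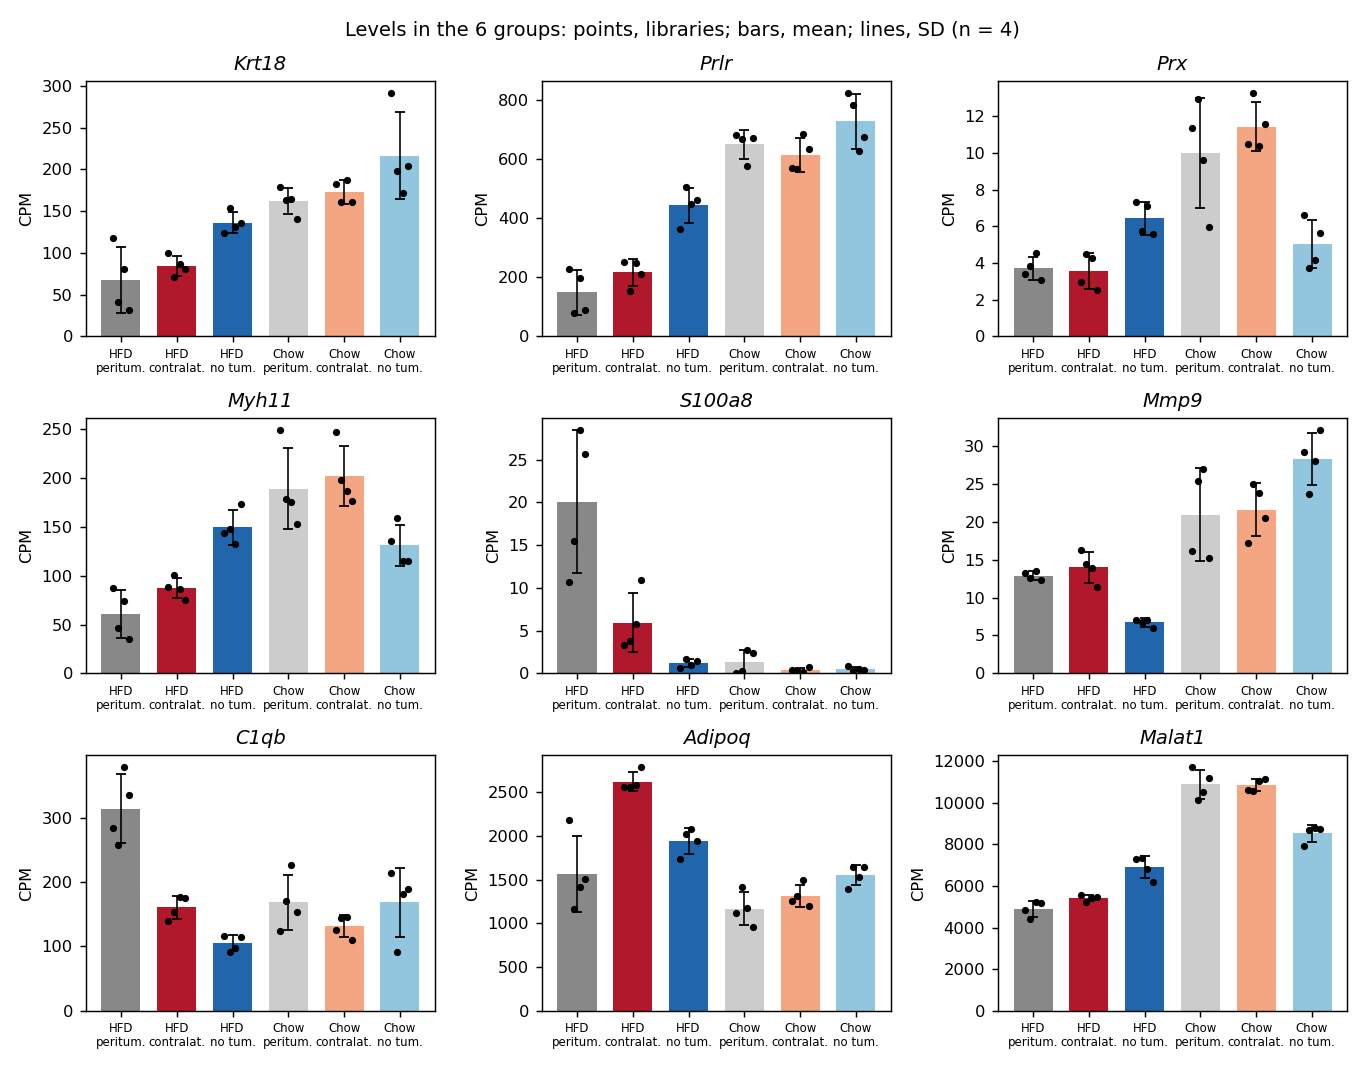
Levels in CPM (vertical axes from 0) of 9 genes in the 6 groups of the series, with libraries as points, the mean as a bar and the SD as a line (n = 4 each). Krt18 averaged 84.3 CPM in HFD contralateral and 135.9 CPM in HFD no-tumor fat, and Prx was lowest in HFD contralateral and HFD peritumoral fat and highest in Chow contralateral fat.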

How the data were processed

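Libraries of total RNA from 24 samples in 6 groups of 4 were sequenced. The deposited matrix holds whole-number counts for 39017 genes, 1410 of them without a symbol. Per the submitters' processing notes the authors used TopHat, DESeq and the mm10 build, with versions not given. How strand was handled in counting is not stated, so overlapping genes may share reads.

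Genes were tested with edgeR 4.0.16 in R 4.3.3 (TMM scaling, robust quasi-likelihood F test, Benjamini-Hochberg adjustment, threshold 0.05) after a filter at a minimum count of 10 and total of 15. Each comparison used its own 8 libraries, and the interaction 16. Printed CPM are TMM-scaled over 24 libraries. Library measures used SciPy's exact permutation test. Alternatives used DESeq2 1.42.0, limma 3.58.1 voom, other scalings and filters, all 24 libraries, a replicate block, and single libraries left out. Thinning to equal depth was chosen after seeing the data. Tested on simulated data, the HFD fit recovered 84 of 100 genes changed 2-fold and 60 of 100 changed 1.5-fold, with 9 false calls among 15718 genes. The simulated counts were drawn independently for each library, with a spread estimated from these same libraries. They held no library apart from its group and no shift shared by many genes. The false calls therefore do not measure those in the real libraries.

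The members and lists were chosen with earlier results of these data known. Genes were named by rule: all creatine genes, up to 15 each way with an absolute log2 change of 1 or more, 5 CPM or more and no overlap, up to 4 called members of each list (or 2 abundant members where 0 passed), and up to 8 each way in the interaction. Members outside the rule, such as those given because they did not pass, were named after their values were seen, and a few named genes are not reported here. No 2 libraries of a group agreed within counting noise, so none was treated as deposited 2 times.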

Additional observations from a re-analysis of the deposited data

Results flagged for a closer look

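In 27 of 314 groups of 4 libraries, 1 library stood apart from the other 3 by Dixon's criterion (gap over range above 0.829), where chance gives about 5% of groups. In HFD contralateral replicate 4 Adipoq (2787 CPM) and Hmgcs1 (314 CPM) were high and Xist (787 CPM) low. In contralateral replicate 2 Gm42418 (378 CPM, 0.0363% of counts) and Ckm (0.0615 CPM) were high and Gipc2 (3.44 CPM), Lipe (987.0 CPM) and Oas3 (3.81 CPM) low. In contralateral replicates 1 and 3 Foxi1 (5.08 CPM) and Cebpd (48.4 CPM) were high and Dgat2 (504 CPM) low. In HFD no-tumor replicate 1 Fasn (798 CPM), Kcnk3 (17.9 CPM), the mitochondrial rRNA share (20.5%), the mitochondrial genome share (22.3%) and the adipocyte sum (24200 CPM) were low. In no-tumor replicate 2 Ckm (0.0637 CPM) and Cr2 (7.84 CPM) were high and Cd74 (711 CPM) low, and in replicate 3 Kcna1 (8.56 CPM) was high. In no-tumor replicate 4 Gm42418 (403 CPM, 0.0414% of counts), Cxcl15 (17.4 CPM) and Adgre1 (57.8 CPM) were high and Oas2 (12.1 CPM) and Clk4 (48.0 CPM) low.

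The difference between contralateral and no-tumor fat itself differed between HFD and Chow, by the interaction test, for 91 of 143 named genes. Over all 16676 genes tested the share was 19.9%. Many named genes were chosen for a call on HFD or in the interaction, so their count is raised by that choice. Among genes with a more positive difference on HFD than on Chow, the log2 interactions were S100a8 (2.67), Il1b (2.44), Ccl2 (1.59), Hdc (1.5), Mmp9 (1.4), Hilpda (1.27), Chrdl1 (1.04), Vnn3 (0.96), C1qb (0.93), Adm (0.89), Csf3r (0.89) and Bmp3 (0.88). Further positive log2 interactions were C1qc (0.87), Fgf10 (0.87), C5ar1 (0.85), mt-Rnr1 (0.81), Ifi27l2a (0.81), Myc (0.81), Tspo (0.8), mt-Rnr2 (0.77), H2-T22 (0.73), Fcgr3 (0.71), Sh3bgrl (0.71) and Irs3 (0.66). Smaller positive ones were Adgre1 (0.66), Gzf1 (0.65), Clec10a (0.63), Adipoq (0.63), Mcm3 (0.62), Etfa (0.61), Pnpla2 (0.61), Sc5d (0.6), Mgst1 (0.6), Chp1 (0.59), Gpx4 (0.59) and H2-D1 (0.59). The next in size were Cox4i1 (0.56), Xbp1 (0.55), Rps14 (0.54), Pdia4 (0.5), Ccdc80 (0.49), Ccl11 (0.49), Fabp4 (0.48), mt-Co1 (0.48), Eci1 (0.47), Apoe (0.45) and Sod1 (0.45). The smallest were Hsbp1 (0.44), Dnajb1 (0.43), Lipe (0.41), Vim (0.37), Mmp14 (0.36), Acadsb (0.35), Txnrd1 (0.35), Ebf1 (0.34) and Nr3c1 (0.33).

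Genes with a more negative difference on HFD had log2 interactions of Gm42418 (-5.9), Prx (-2.08), Kcna1 (-2.06), Mal (-1.95), Foxi1 (-1.92), Ckmt1 (-1.87), Ttc6 (-1.68), Neat1 (-1.53), Myh11 (-1.43), Slc5a5 (-1.41) and Erbb3 (-1.34). These were followed by Glt28d2 (-1.34), Rbm4 (-1.33), Gpr17 (-1.33), Rassf6 (-1.12), Cgn (-1.09), Prom1 (-1.09), Ccdc162 (-1.08), Rbm4b (-1.07), Vtcn1 (-1.01), Meg3 (-0.93), Mylk (-0.91) and Per3 (-0.88). Smaller negative values were Gata3 (-0.87), Notch3 (-0.85), Prlr (-0.84), Abcc9 (-0.82), Emcn (-0.81), Cry1 (-0.81), Malat1 (-0.73), Xist (-0.71), Kcnj8 (-0.67), Ccnt2 (-0.66), Kit (-0.59) and Clk4 (-0.59). The Gm42418 value came from Chow. It averaged 3.19% of counts in Chow contralateral libraries, with an SD of 5.46, and 0.05241% in Chow no-tumor libraries. On HFD it averaged 0.0263% in contralateral and 0.02625% in no-tumor libraries.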

How the results depend on the processing

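The 956 calls between HFD contralateral and HFD no-tumor fat numbered 238 with all 24 libraries in 1 fit (24.4% of them higher, against 44.7%; 222 shared), 629 with a replicate block (569 shared), 1258 with DESeq2, 1291 with limma voom, and 365 to 1220 with single libraries left out, lowest without no-tumor replicate 3. The replicate numbers did not pair the libraries (correlations of deviations -0.022, -0.154, -0.043 and 0.077). On Chow the 1268 calls numbered 375 to 1986 with single libraries left out, and DESeq2 called 51.6% of its genes higher, against 62%. The 3314 interaction calls numbered 1556 with all 24 libraries. Of 101 named genes called on HFD, 24 were called in all 17 alternatives, and 31 were lost only with all 24 libraries. With single libraries left out, uncalled genes crossed 0: Clock (-0.0923 to 0.0206), Pdpn (-0.0696 to 0.1494), Nr3c1 (-0.0079 to 0.0803), Gm42418 (-0.1014 to 0.4156), Col3a1 (-0.1727 to 0.0846), Kcnk3 (-0.0132 to 0.2713), Gatm (-0.1731 to 0.0455) and Gbp7 (-0.0284 to 0.1847), as did the differences in the Gm42418 share (-0.00329 to 0.005105 percentage points) and the B cell sum (-46.63 to 10.73 CPM). The causes were not tested. Thinned to equal depth, 934 genes were called.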
